A study of Homo sapiens with 12 samples.

Results

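The aldehyde dehydrogenase family was followed in HepG2 and LM3 cells after knockdown of the long noncoding RNA FASRL. Members were taken by gene symbol, and all 10 named members (ALDH1A1, ALDH1A3, ALDH1B1, ALDH1L1, ALDH2, ALDH3A1, ALDH3A2, ALDH6A1, ALDH7A1 and ALDH9A1) were found among the 8842 genes listed for every library. A further 6 listed genes belong to the same family, which makes 16 ALDH genes in all. HepG2 and LM3 are established human liver cancer lines. Each was transfected with an siRNA against FASRL (siFASRL) or with a negative control siRNA (siNC), and RNA was harvested 48 h later, which gives 4 groups of 3 libraries and 12 libraries in all. Whether the replicates were separate cultures is not stated in the sources used here, so the p-values measure only the spread between these libraries, which may be technical. FASRL itself was not analysed here, so the degree of its knockdown in these libraries is not given.

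The values are RSEM expression levels, normalized by the authors for transcript length and library size. Whether they are FPKM or TPM is not stated. They are not counts, so the depth is unknown and no counting error is given. The listed values of a library summed to between 316534 and 355094. The listed genes are a subset of the genome. Among genes with a mean of at least 5 in HepG2, 5 of 6367 (0.0785%) lay between -0.20 and -0.04 in the log2 of the siFASRL mean over the siNC mean. In LM3 this range held 578 of 5937 genes (9.74%), so background shares for HepG2 refer to a list nearly empty of such small decreases.

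Aldehyde dehydrogenases oxidize aldehydes to carboxylic acids with NAD+ or NADP+ as the acceptor of electrons. In liver they clear acetaldehyde formed from ethanol and aldehydes formed when lipids are peroxidized. They also make retinoic acid from retinaldehyde, and they act in the breakdown of amino acids, choline and fatty alcohols. Some sit in the cytosol and others in the mitochondrial matrix or in the membrane of the endoplasmic reticulum.

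The lines differed in their liver character. Of 14 hepatocyte markers, 12 were listed, and their summed value was 4697.31 in HepG2 siNC (4821.92, 4809.42 and 4460.59 in replicates 1 to 3) against 957.53 in LM3 siNC (869.95, 1016.11 and 986.54). The most abundant was SERPINA1 in HepG2 siNC, with a mean of 1392.67, and KRT18 in LM3 siNC, with a mean of 940.29. In LM3 siNC, 7 of the 12 stayed below 0.5 in all libraries, and albumin (ALB) had a mean of 0.36 ± 0.28 (SD, n = 3) there against 815.29 ± 31.70 in HepG2 siNC. HNF4A, a transcription factor of hepatocytes, was listed in LM3 siNC at 14.34 ± 0.10 and in HepG2 siNC at 26.15 ± 2.06.

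Markers also moved with the knockdown. With no filter on low values, 11 of the 12 hepatocyte markers fell in HepG2 at a limma adjusted p under 0.05 and 0 rose, against 46.2% and 43.2% of all genes. In LM3, 3 of the 12 fell and 0 rose, against 40.9% and 28.3%. HNF4A fell in both lines, to 12.12 in HepG2 (log2 fold change -1.05, limma adjusted p = 1.01e-06) and to 6.71 in LM3 (log2 fold change -0.998, limma adjusted p = 5.66e-06). The sum of the markers was 2579.96 in HepG2 after siFASRL, and 763.09 in LM3, where KRT18 made up nearly all of it. Of 11 markers of other cell types, 7 were listed, and the most abundant was KRT7, a keratin of bile duct and other epithelia. Their sum was 532.89 in siNC and 1100.51 in siFASRL in HepG2, and 225.66 and 378.17 in LM3, with KRT7 means of 337.93 and 761.14 in HepG2 siNC and siFASRL. With no filter, 2 of the 7 fell and 3 rose in HepG2, and 3 fell and 2 rose in LM3, beside the same shares of all genes. The collagen gene COL1A1 fell in both lines, with means of 20.11 and 15.68 in HepG2 and 9.95 and 3.01 in LM3. In HepG2 the keratin KRT19 rose from 121.98 to 261.08 and ACTA2, a smooth muscle actin, from 10.75 to 17.44. The sums follow KRT7, and KRT19 in HepG2. The endothelial marker VWF and the fibroblast marker DCN had means below 1 in every group. The part of these markers in the ALDH values was not tested. In bulk RNA, fewer cells of a type and less RNA per cell cannot be told apart.

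Every ALDH member was lower in all 3 HepG2 siFASRL libraries than in any HepG2 siNC library, which held for 44.2% of the 8144 genes tested there. Differences were tested with limma after taking log2(value + 1). A gene was tested in a line when 3 or more of its 6 libraries reached a value of 1, with Benjamini-Hochberg adjustment over all genes tested. On this scale the change of a gene with low values is understated. ALDH1L1 and ALDH3A1 passed this filter in HepG2 only through siNC, which by itself places their siFASRL values below their siNC values. Their lack of overlap is therefore not read against the 44.2%. For the same reason the count over all members is given from the fit with no filter. There, 10 of 10 members fell and 0 rose at an adjusted p under 0.05, against 46.2% of all 8842 genes that fell and 43.2% that rose. In the filtered fit, 44.3% of all genes tested fell and 44.8% rose at that adjusted p. The median log2 fold change of the members was -0.87 with no filter, beside 0.08 for all genes.

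In LM3, 8 members passed the filter, and ALDH1A1 and ALDH1L1 did not. With no filter, 6 of 10 members fell and 0 rose, against 40.9% of all genes that fell and 28.3% that rose. In the filtered fit, 43.5% of 7483 genes fell and 33.9% rose. The same 6 members were lower in all siFASRL libraries than in any siNC library, as were 44.6% of the genes tested. The median of the 10 members with no filter was -0.50, beside -0.06 for all genes. A stricter rule, a log2 fold change beyond 1 in either direction together with an adjusted p under 0.05, took ALDH1A1 in HepG2 and ALDH1A3 and ALDH3A1 in LM3. ALDH1L1 and ALDH3A1 in HepG2 are not counted under this rule in any filtered setting, since only siNC brought them past the filter. With no filter, ALDH1L1 in HepG2 met it (-1.22, limma adjusted p = 4.02e-07) and ALDH3A1 did not (-0.96). The calls moved with the setting. Under quantile normalization ALDH1A3 in LM3 (-0.96) left the rule and ALDH2 in HepG2 (-1.01) met it. With 0.1 in place of 1 as the added constant, ALDH1A3 met it in HepG2 (-1.26), as did 1373 genes in all, against 847 with 1. Without some single libraries ALDH1A3 in HepG2 and ALDH2 in LM3 met it narrowly. With 1 added and no further scaling, 6.79% of genes fell and 3.61% rose under this rule in HepG2, and 6.2% fell and 1.42% rose in LM3.

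Scaling the libraries by the median of ratios moved the median of all genes in LM3 from -0.06 to 0.05, and the 6 LM3 members remained lower, with log2 fold changes between -1.32 and -0.35, while ALDH1B1 and ALDH7A1, which had not passed the test, took a positive sign (0.04 and 0.05). Decreases made up 65.3% of the genes past the stricter rule in HepG2 and 81.4% in LM3. After quantile normalization these shares were 53.0% and 62.2%, and after median-of-ratios scaling 66.1% and 69.0%. An exact permutation test of 3 libraries against 3 cannot give a two-sided p below 0.1, and it gave 0.1 for each of the 10 members in HepG2. Groups that do not overlap always give this value, so it only restates the lack of overlap.

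**Figure D1:**
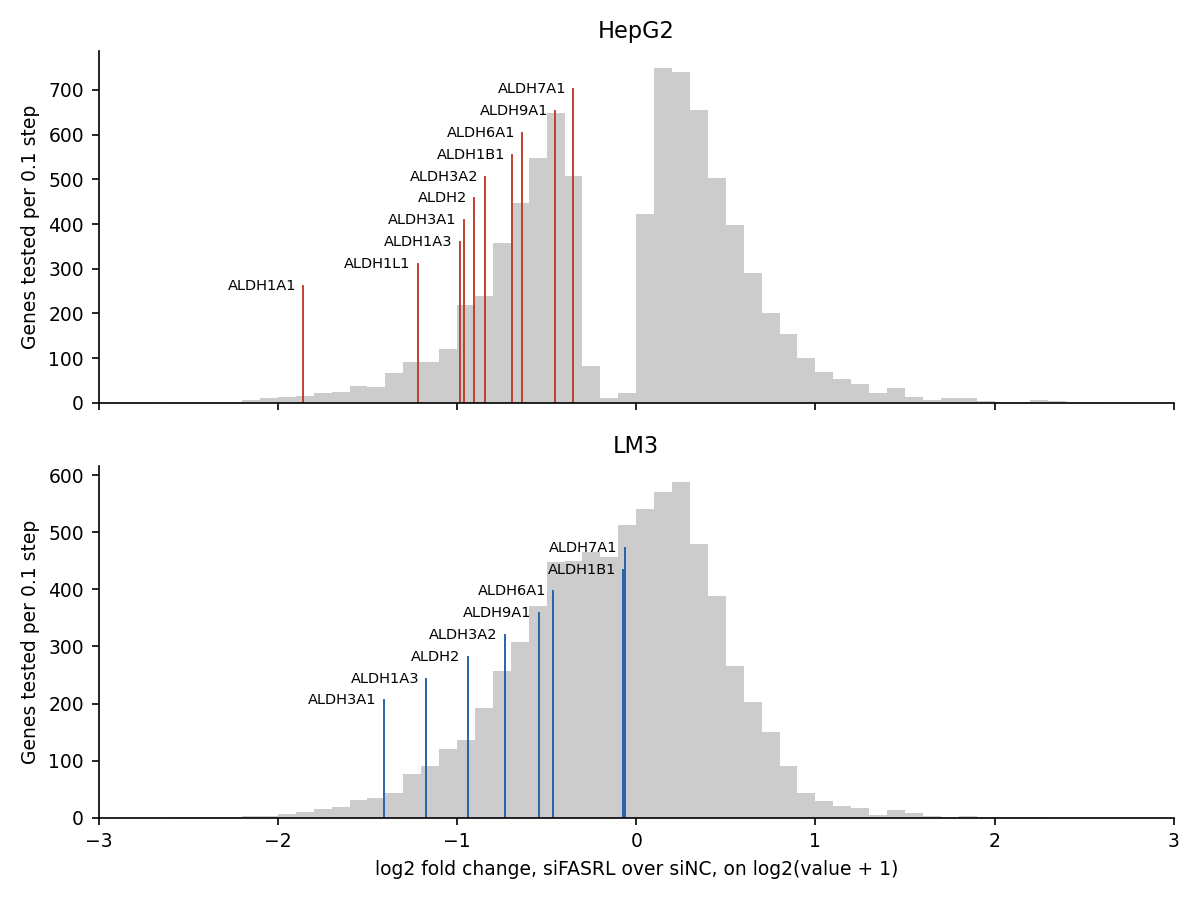
Log2 fold change of siFASRL over siNC on the log2(value + 1) scale (horizontal axis) for all genes tested in HepG2 (top) and LM3 (bottom), as the number of genes per step of 0.1 (grey), with the members tested drawn as labelled lines whose height has no meaning. Members span -1.86 to -0.35 in HepG2 and -1.41 to -0.06 in LM3, where ALDH1A1 and ALDH1L1 were not tested, and ALDH1B1 and ALDH7A1 change sign in LM3 under median-of-ratios scaling.

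For 4 members, the 250 bases before the start are shown. The members are a gene near 0 in LM3 (ALDH1A1) and a pair that fell in both lines (ALDH1A3 and ALDH3A2). The last is a gene that fell in HepG2 without passing the test in LM3 (ALDH7A1). Whether these windows bear on the knockdown response was not tested. Promoter sequences were at hand for 8 of the 10 members, without ALDH2 and ALDH3A1. The sequences shown are from RefSeq on GRCh38.p14. They are written 5′ to 3′ on the strand of the gene, and capitals mark matches on either strand to CACGTG (the E-box), TGACNNNGC (the core of the antioxidant response element), GCGTG (the core of the xenobiotic response element) or CCAAT. They lie at chr9:72953054-72953303 (minus strand), chr15:100879581-100879830 (plus strand), chr17:19647886-19648135 (plus strand) and chr5:126595220-126595469 (minus strand).
ALDH1A1: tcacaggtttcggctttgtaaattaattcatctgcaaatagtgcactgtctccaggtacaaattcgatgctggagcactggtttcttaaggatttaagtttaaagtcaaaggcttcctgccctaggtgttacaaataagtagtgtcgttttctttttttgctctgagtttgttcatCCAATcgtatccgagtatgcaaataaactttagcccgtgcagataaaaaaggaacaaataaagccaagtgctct
ALDH1A3: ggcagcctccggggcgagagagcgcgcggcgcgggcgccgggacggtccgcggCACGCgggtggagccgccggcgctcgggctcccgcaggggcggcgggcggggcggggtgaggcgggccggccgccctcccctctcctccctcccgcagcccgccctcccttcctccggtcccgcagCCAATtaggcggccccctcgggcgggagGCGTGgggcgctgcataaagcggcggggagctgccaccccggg
ALDH3A2: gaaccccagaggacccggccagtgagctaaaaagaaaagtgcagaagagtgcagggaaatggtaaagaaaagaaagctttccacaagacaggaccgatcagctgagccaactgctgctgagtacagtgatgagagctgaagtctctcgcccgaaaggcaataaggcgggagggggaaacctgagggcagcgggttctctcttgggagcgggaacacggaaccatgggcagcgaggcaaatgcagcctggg
ALDH7A1: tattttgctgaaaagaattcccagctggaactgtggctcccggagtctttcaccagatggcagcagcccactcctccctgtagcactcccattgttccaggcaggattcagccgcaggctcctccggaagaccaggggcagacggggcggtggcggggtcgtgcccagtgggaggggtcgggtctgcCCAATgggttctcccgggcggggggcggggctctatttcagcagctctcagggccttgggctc

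These windows differed in base composition, with 38.4% G and C in ALDH1A1, 55.6% in ALDH3A2, 64.0% in ALDH7A1 and 82.4% in ALDH1A3. CCAAT began 74 bases before the start of ALDH1A1, 71 before ALDH1A3 and 63 before ALDH7A1. It was found in 32.0% of 35116 promoter windows of the same length. ALDH1A3 also held GCGTG at 2 places, a motif present in 32.2% of windows. The ALDH3A2 window held none of the 4 motifs, whereas a window at a second start (chr17:19648501-19648750) held all but the TGACNNNGC motif. The E-box was present in 6.34% and TGACNNNGC in 10.9% of all windows. A match is a description of the letters only.

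The retinaldehyde enzymes of the cytosol differed in which lines held them. ALDH1A1, which makes retinoic acid and is a marker of stem-like cells in several tissues, lies at chr9:72900671-72953053. Its values were 102.37, 90.21 and 101.27 in HepG2 siNC and 28.27, 24.78 and 25.84 in HepG2 siFASRL. All siFASRL libraries were far below all siNC libraries, and 26.9% of the siNC mean remained (24.2% to 31.3% between single libraries). The log2 fold change was -1.86 with a standard error of 0.07 (limma adjusted p = 5.07e-08). In LM3 the gene was listed at 0, 0.04 and 0 in siNC and at 0.02, 0 and 0 in siFASRL. LM3 thus had no level of ALDH1A1 from which a decrease could be measured.

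ALDH1A3, a second enzyme that makes retinoic acid, lies at chr15:100879831-100916626. It was listed at 5.03, 4.77 and 5.32 in HepG2 siNC and at 1.75, 2.23 and 2.2 in HepG2 siFASRL. In LM3 it was listed at 10.82, 10.37 and 10.22 in siNC and at 3.93, 4.52 and 3.84 in siFASRL. The groups did not overlap in either line. The share that remained was 40.9% in HepG2 and 39.1% in LM3, with log2 fold changes of -0.98 (standard error 0.08, limma adjusted p = 1.79e-06) and -1.17 (standard error 0.06, limma adjusted p = 1.25e-06). The interaction, the LM3 effect minus the HepG2 effect, did not pass the test (-0.19, 95% interval -0.41 to 0.03, limma adjusted p = 0.142), although it did without siFASRL replicate 1 of HepG2 (-0.26, limma adjusted p = 0.028).

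**Figure D2:**
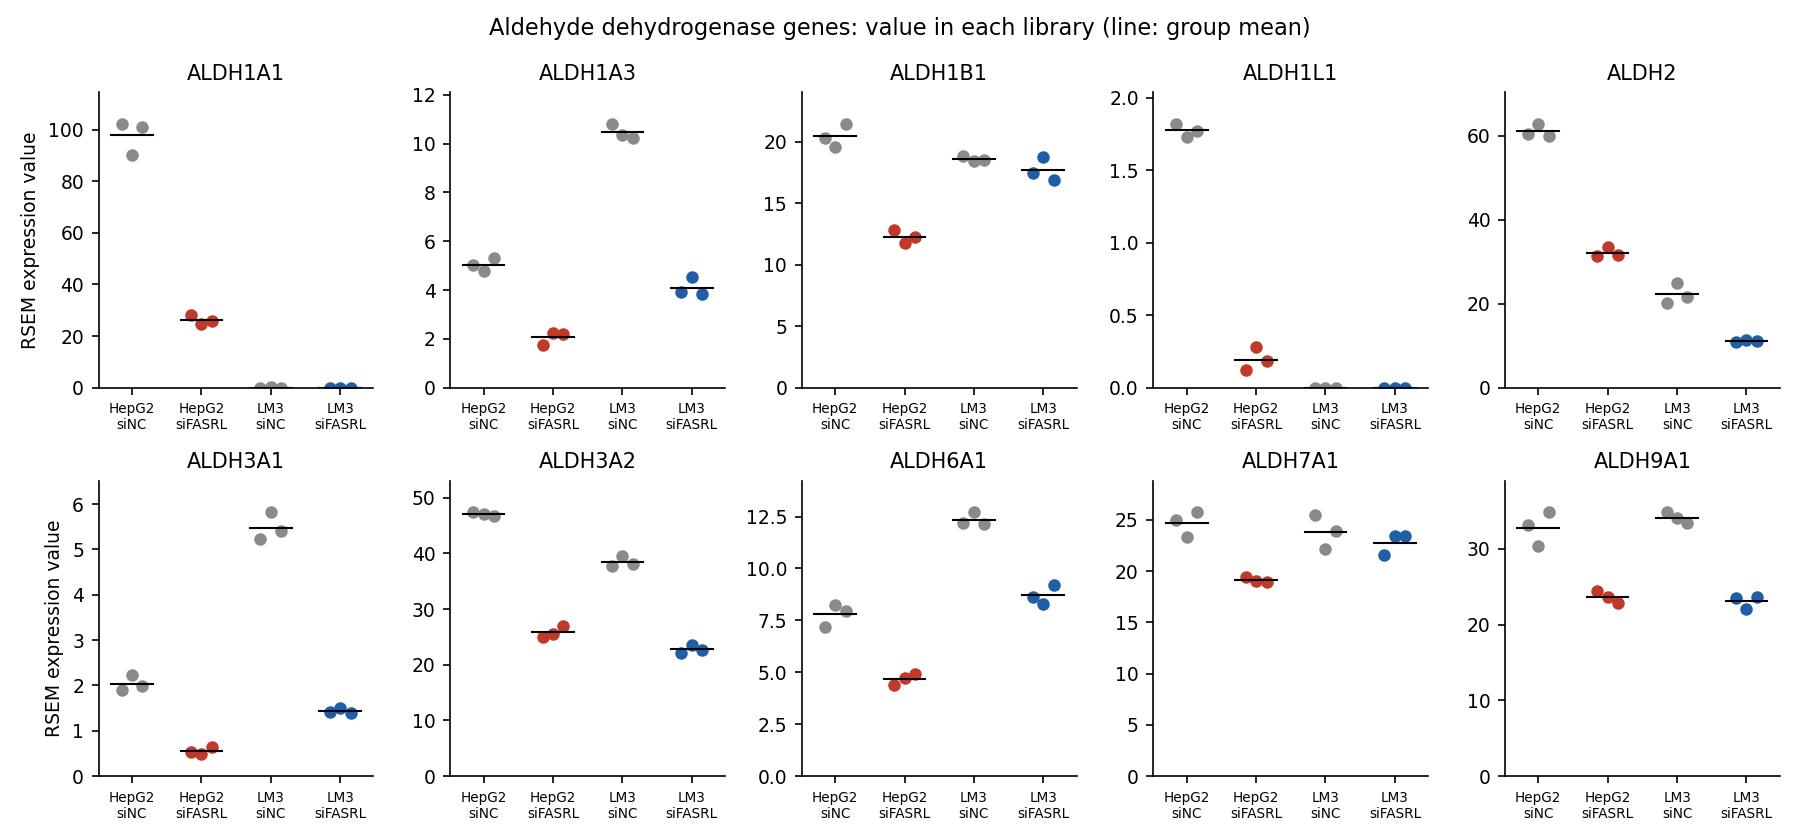
RSEM expression value (vertical axis, from 0, a scale of its own in each panel) of the 10 members in each of the 12 libraries, by cell line and siRNA, with points for libraries and lines for group means. All 3 HepG2 siFASRL points lie below the siNC points in every panel, and the ALDH1A1 and ALDH1L1 points of LM3 lie at 0 or at most 0.04.

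ALDH3A1, a cytosolic enzyme that oxidizes aromatic and medium-chain aldehydes and is induced by xenobiotics, lies at chr17:19737984-19748298. Its values were 1.89, 2.23 and 1.99 in HepG2 siNC and 0.54, 0.49 and 0.65 in HepG2 siFASRL. In LM3 they were 5.22, 5.82 and 5.40 in siNC and 1.42, 1.51 and 1.38 in siFASRL. The groups were apart in both lines, and nearly the same share remained, 27.5% in HepG2 (22.0% to 34.4%) and 26.2% in LM3 (23.7% to 28.9%). In the fit with no filter the log2 fold change was -0.96 in HepG2 (95% interval -1.11 to -0.81, limma adjusted p = 1.68e-06) and -1.41 in LM3 (95% interval -1.52 to -1.30, limma adjusted p = 1.94e-05). In the filtered fit of all 12 libraries the interaction was -0.45 (limma adjusted p = 0.000678). With 0.1 in place of 1 as the added constant it was -0.16 (limma adjusted p = 0.331), and the HepG2 fold change was -1.70. Whether the lines differ for ALDH3A1 therefore depends on the constant, which weighs more on the lower HepG2 values.

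ALDH3A2, the fatty aldehyde dehydrogenase of the endoplasmic reticulum, lies at chr17:19648136-19677596, on the same chromosome. It was a high member in both lines, at 47.40, 47.11 and 46.70 in HepG2 siNC and 25.06, 25.53 and 26.88 in HepG2 siFASRL. In LM3 it was at 37.81, 39.55 and 38.17 in siNC and 22.18, 23.59 and 22.56 in siFASRL. In both lines it fell without overlap of the groups, and 54.9% and 59.1% of the siNC mean remained. The log2 fold changes were -0.84 (standard error 0.05) and -0.73 (standard error 0.05), with limma adjusted p of 6.31e-07 and 3.77e-06.

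Of the mitochondrial enzymes of acetaldehyde oxidation, ALDH2 fell in both lines and ALDH1B1 passed the test in HepG2. ALDH2, the main enzyme of acetaldehyde clearance, lies at chr12:111766933-111817532. It was listed at 60.41, 62.91 and 59.89 in HepG2 siNC and at 31.46, 33.40 and 31.72 in siFASRL. In LM3 it was listed at 20.27, 24.91 and 21.68 in siNC and at 10.88, 11.39 and 11.00 in siFASRL. About the same share remained in both lines, 52.7% and 49.8%, with log2 fold changes of -0.90 and -0.94 (standard errors 0.06 and 0.08, limma adjusted p = 4.77e-07 and 7.86e-06). The interaction was -0.04 (95% interval -0.24 to 0.16).

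ALDH1B1, which lies at chr9:38392702-38398661, was listed at 20.28, 19.52 and 21.45 in HepG2 siNC and at 12.77, 11.75 and 12.26 in siFASRL. In LM3 its values were 18.82, 18.43 and 18.53 in siNC and 17.40, 18.78 and 16.84 in siFASRL. The HepG2 groups were apart and the LM3 groups overlapped. The log2 fold change was -0.69 in HepG2 (standard error 0.06, limma adjusted p = 4.03e-06) and -0.07 in LM3 (95% interval -0.20 to 0.06, limma adjusted p = 0.263). The effects differed between the lines by 0.62 (standard error 0.08, limma adjusted p = 2.54e-05), in a test that 46.7% of 8285 genes passed.

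ALDH1L1, the cytosolic 10-formyltetrahydrofolate dehydrogenase of the folate pool, lies at chr3:126103570-126197945. It was low in HepG2, at 1.82, 1.73 and 1.77 in siNC, and at 0.12, 0.28 and 0.18 in siFASRL, so that 10.9% of the mean remained (6.59% to 16.2%). In the fit with no filter the log2 fold change was -1.22 (standard error 0.06, limma adjusted p = 4.02e-07). It was -2.71 with 0.1 as the added constant and -0.95 under quantile normalization. With any 1 of the HepG2 siNC libraries left out, neither ALDH1L1 nor ALDH3A1 passed the filter in HepG2, so they were not tested there. In LM3 the gene was listed at 0 in all 6 libraries. RefSeq places the antisense genes ALDH1L1-AS1 and ALDH1L1-AS2 across parts of ALDH1L1, and ALDH1A3-AS1 across 24284 bases of ALDH1A3. Whether the authors' counting used strand is not stated, so whether reads of overlapping genes on opposite strands were kept apart is not known here.

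The enzymes of amino acid and carnitine metabolism had the smallest log2 fold changes in HepG2 on the log2(value + 1) scale. By the share of the siNC mean that remained, ALDH1B1 (60.05%) was level with ALDH6A1 there. ALDH6A1, the methylmalonate semialdehyde dehydrogenase of valine breakdown, lies at chr14:74056847-74084453 and ranged from 7.19 to 8.26 in HepG2 siNC and from 4.39 to 4.90 in siFASRL. In LM3 it ranged from 12.16 to 12.71 in siNC and from 8.29 to 9.19 in siFASRL. It fell in both lines without overlap, with 59.8% and 70.4% remaining (log2 fold changes -0.63 and -0.46, limma adjusted p = 1.32e-05 and 7.37e-05). It shares 26018 bases with BBOF1 on the opposite strand, which was listed at 2.31 to 2.44 in HepG2 siNC and at 0.78 to 1.13 in siFASRL. In LM3 it was listed at 2.18 to 2.56 in siNC and at 1.22 to 1.38 in siFASRL. Whether reads of ALDH6A1 and BBOF1 were kept apart is not known here in either line.

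ALDH9A1, which makes a precursor of carnitine and oxidizes aminoaldehydes, lies at chr1:165662216-165698562 and had nearly equal levels in both lines. It ranged from 30.43 to 34.84 in HepG2 siNC and from 22.88 to 24.45 in siFASRL, and from 33.37 to 34.83 and from 22.09 to 23.63 in LM3. It fell in both, with 72.2% and 67.6% remaining (log2 fold changes -0.45 and -0.55, limma adjusted p = 0.000106 and 1.97e-05). ALDH7A1, or antiquitin, acts in lysine breakdown and in the making of betaine from choline and lies at chr5:126541841-126595219. It was listed at 25.00, 23.27 and 25.74 in HepG2 siNC and at 19.44, 19.07 and 18.88 in siFASRL. In LM3 the values were 25.51, 22.13 and 23.91 in siNC and 21.52, 23.41 and 23.38 in siFASRL.

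ALDH7A1 groups were apart in HepG2 and overlapped in LM3. Its log2 fold change was -0.35 in HepG2 (standard error 0.06, limma adjusted p = 0.000284) and -0.06 in LM3 (95% interval -0.21 to 0.09, limma adjusted p = 0.400). The effects differed by 0.29 (standard error 0.09, limma adjusted p = 0.0140). RefSeq holds the pseudogenes ALDH7A1P1, ALDH7A1P2, ALDH7A1P3 and ALDH7A1P4, none of which was listed. The authors aligned reads to coding transcripts with Bowtie2 and took gene levels from RSEM. Whether that set held these pseudogenes is not given in the sources used here.

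**Figure D3:**
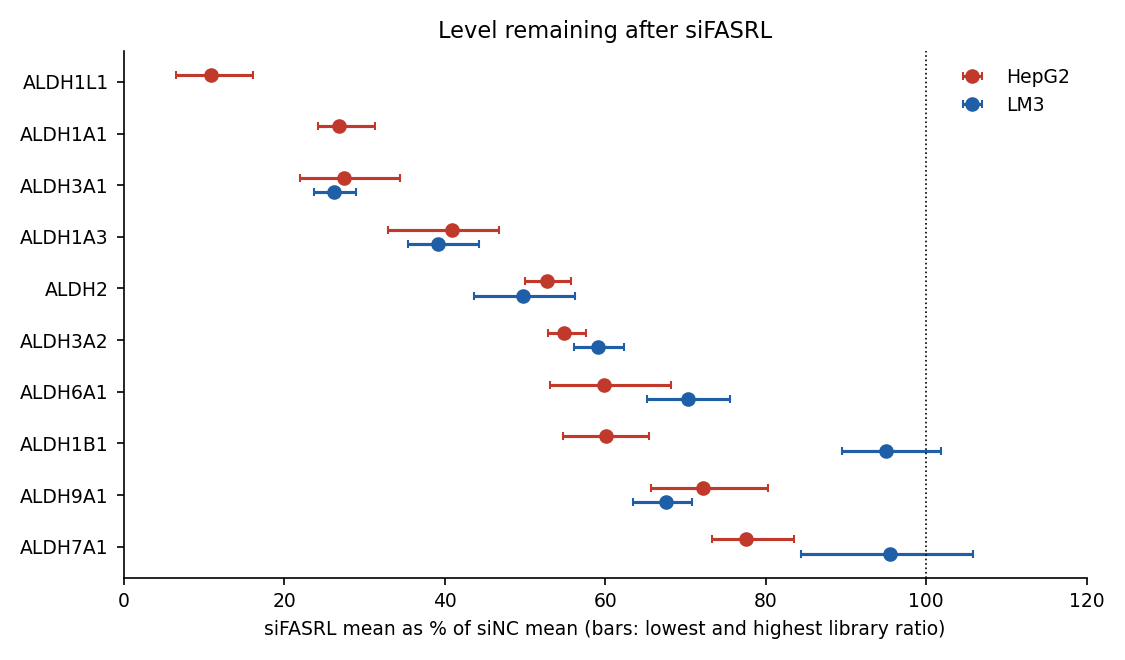
Mean siFASRL value as a percent of the mean siNC value (horizontal axis) for each member in HepG2 (red) and LM3 (blue), with bars from the lowest to the highest ratio of single libraries and a dotted line where both means are equal. ALDH1L1 has the least remaining in HepG2 (10.9%), ALDH1B1 and ALDH7A1 stand at 95.1% and 95.5% in LM3, and ALDH1A1 and ALDH1L1 are not drawn for LM3, where they were listed at or near 0.

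In HepG2 siNC the order of levels, which are normalized for length, ran from ALDH1A1 (97.95 ± 6.73, SD, n = 3) through ALDH2 (61.07 ± 1.62), ALDH3A2 (47.07 ± 0.35), ALDH9A1, ALDH7A1, ALDH1B1, ALDH6A1 and ALDH1A3 to ALDH3A1 (2.04 ± 0.18) and ALDH1L1 (1.77 ± 0.05). No neighbours in this order overlapped. After siFASRL, ALDH2 (32.19 ± 1.05) stood first, and ALDH1A1 (26.30 ± 1.79) and ALDH3A2 (25.82 ± 0.95) overlapped. In LM3 siNC, ALDH3A2 (38.51 ± 0.92) and ALDH9A1 (34.11 ± 0.73) led, ALDH7A1 (23.85 ± 1.69) overlapped with ALDH2 (22.29 ± 2.38), and ALDH3A1 (5.48 ± 0.31) was the lowest member above 0.04. After siFASRL in LM3, ALDH9A1, ALDH3A2 and ALDH7A1 overlapped at means of 23.07, 22.78 and 22.77.

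Between the control groups, ALDH2 was lower in LM3 by at least 1 on the log2 scale, a rule that 15.5% of 8285 genes met. ALDH1A1 and ALDH1L1 are not counted here, since only HepG2 values brought them past the filter of this comparison, and with LM3 at or near 0 the size of a log2 difference would be set by the added constant. ALDH3A1 was higher by that rule, which 7.65% met. ALDH2 had a log2 difference (LM3 minus HepG2) of -1.42 (limma adjusted p = 1.53e-10), with a HepG2 mean 2.74 times that of LM3. ALDH3A1 had 1.09 (limma adjusted p = 8.76e-10), with an LM3 mean 2.69 times that of HepG2, and ALDH1A3 had 0.93 (limma adjusted p = 3.5e-08). ALDH7A1 (-0.05, 95% interval -0.18 to 0.08) and ALDH9A1 (0.06, 95% interval -0.06 to 0.18) did not pass the test. Line and culture cannot be told apart in this comparison.

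The summed value of the 10 members was 300.62 ± 8.90 (SD, n = 3) in HepG2 siNC and 146.85 ± 1.24 in HepG2 siFASRL, or 48.9% of the control. In LM3 it was 165.67 ± 2.33 and 111.61 ± 2.08, or 67.4%. Sums across libraries depend on the unit, whereas shares within a library are the same in FPKM and TPM. ALDH1A1 made up 32.6% of the HepG2 siNC sum and 17.9% after siFASRL, and it accounted for 46.6% of the drop in the HepG2 sum, with ALDH2 at 18.8% and ALDH3A2 at 13.8%. In LM3 the drop was spread over ALDH3A2 (29.1%), ALDH2 (20.7%), ALDH9A1 (20.4%) and ALDH1A3 (11.8%). The shares of ALDH1B1 and ALDH7A1 were higher after siFASRL in both lines, as the rest of the sum fell more. In HepG2 the mean shares of ALDH2, ALDH3A2, ALDH6A1 and ALDH9A1 were higher too, for ALDH9A1 16.1% against 10.9%. In LM3 the shares differed little for ALDH6A1 (7.795 ± 0.464% against 7.458 ± 0.0957%) and ALDH9A1 (20.68 ± 1.08% against 20.59 ± 0.401%). For ALDH7A1 the share was 13.0% against 8.20% in HepG2 and 20.4% against 14.4% in LM3.

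**Figure D4:**
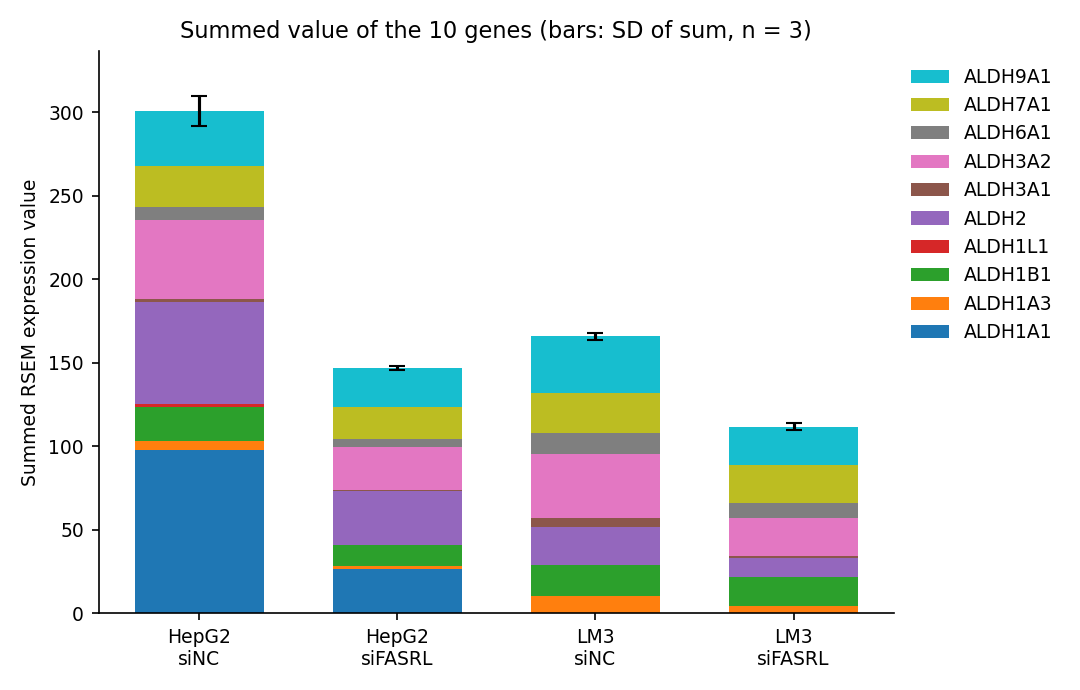
Summed RSEM expression value of the 10 members (vertical axis, from 0) as stacked group means for the 4 groups, with error bars for the SD of the sum over 3 libraries. ALDH1A1 is the tallest segment in HepG2 siNC and is not visible in LM3, and the sum falls from 300.62 to 146.85 in HepG2 and from 165.67 to 111.61 in LM3.

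The other 6 listed ALDH genes were ALDH3B1, ALDH4A1, ALDH5A1, ALDH8A1, ALDH16A1 and ALDH18A1. With no filter, 6 of 6 fell in HepG2, against 46.2% of all genes, and 4 of 6 in LM3, against 40.9%. ALDH5A1, the succinate semialdehyde dehydrogenase of GABA breakdown, fell from 15.36 ± 0.24 to 8.33 ± 0.22 in HepG2 and from 9.35 ± 0.61 to 5.01 ± 0.23 in LM3. ALDH18A1, which makes a precursor of proline, fell from 39.57 ± 1.68 to 24.71 ± 0.82 in HepG2 and from 50.12 ± 1.44 to 36.11 ± 0.27 in LM3. ALDH3B1, which oxidizes aldehydes from lipid peroxidation, fell from 47.98 ± 4.41 to 26.85 ± 1.01 and from 27.98 ± 2.29 to 17.66 ± 0.77. ALDH4A1, an enzyme of proline breakdown, had a HepG2 siNC mean 9.21 times that of LM3 siNC (18.94 against 2.06). In LM3 only siNC brought ALDH4A1 past the filter. ALDH16A1 overlapped between the LM3 groups (7.88 ± 1.67 and 6.37 ± 0.35, log2 fold change -0.25, 95% interval -0.54 to 0.04, limma adjusted p = 0.0981), and it passed the test there without siNC replicate 1 (-0.42, limma adjusted p = 7.27e-05). ALDH8A1 stayed below 1 in all libraries.

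Genes of the pathways around the members were counted from lists, over every listed gene in the fit with no filter. There, 46.2% of all genes fell and 43.2% rose in HepG2 (median 0.08), and 40.9% fell and 28.3% rose in LM3 (median -0.06). No list was tested against the other genes. Genes near 0 in a line change little on this scale, so they draw the median of a list towards 0. Of 18 genes of the retinoid list, 10 fell and 7 rose in HepG2 (median -0.39), and 7 fell and 4 rose in LM3 (median -0.09). CRABP2, which carries retinoic acid to its receptor, fell from 26.63 ± 1.86 to 6.12 ± 1.87 in HepG2 and from 7.79 ± 1.19 to 1.30 ± 0.20 in LM3. RARRES3, a retinoic acid responsive phospholipase, fell from 35.56 ± 1.54 to 7.53 ± 0.65 and from 2.50 ± 0.13 to 0.41 ± 0.21. RARRES2 (chemerin) fell from 75.73 ± 3.20 to 31.38 ± 2.19 and from 6.90 ± 0.54 to 1.37 ± 0.47. STRA6, the membrane receptor for retinol-binding protein, fell from 6.46 ± 0.98 to 1.82 ± 0.09 in HepG2.

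Other enzymes form or remove aldehydes. Of 11 genes of the aldehyde reductase list, 9 fell and 0 rose in HepG2 (median -0.66), and 6 fell and 0 rose in LM3 (median -0.35). The aldo-keto reductase AKR1B10 fell from 35.57 ± 2.25 to 12.30 ± 0.37 in HepG2, and AKR1C1 from 471.96 ± 11.23 to 201.02 ± 19.72 and AKR1C2 from 47.20 ± 2.28 to 19.66 ± 1.17. These 3 genes had LM3 means below 1. In LM3, GSTA4, which conjugates 4-hydroxynonenal, fell from 3.84 ± 0.28 to 1.08 ± 0.12 and CBR3, a carbonyl reductase, from 3.22 ± 0.881 to 0.997 ± 0.188. Of the alcohol dehydrogenase and acetate list, 5 of 5 fell in HepG2 (median -0.49) and 2 of 5 in LM3 (median -0.17). ADH6, an alcohol dehydrogenase, fell from 4.31 ± 0.49 to 0.90 ± 0.20 in HepG2, and ACSS2, which turns acetate into acetyl-CoA, from 19.08 ± 1.40 to 7.07 ± 0.14 in LM3.

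Of 17 genes of the folate list, 11 fell and 5 rose in HepG2 (median -0.51), where 46.2% of all genes fell and 43.2% rose. In LM3, 8 fell and 4 rose (median -0.15), where 40.9% of all genes fell and 28.3% rose. SHMT1, the cytosolic serine hydroxymethyltransferase, fell from 21.09 ± 2.18 to 9.49 ± 0.39 in LM3. Of the valine and branched-chain list, 11 of 15 fell and 3 rose in HepG2 (median -0.47), and 10 fell and 2 rose in LM3 (median -0.35). HIBADH, which forms the methylmalonate semialdehyde that ALDH6A1 takes up, fell from 39.77 ± 1.68 to 18.41 ± 0.36 in LM3. In HepG2 it fell from 35.72 ± 0.74 to 18.17 ± 1.16. ACADSB, a dehydrogenase of short branched-chain acyl-CoA, fell from 12.09 ± 0.55 to 5.12 ± 0.25 in HepG2.

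Of the lysine and choline list, 8 of 9 fell and 0 rose in HepG2 (median -0.60), and 3 fell and 0 rose in LM3 (median -0.08). DHTKD1, a dehydrogenase of the lysine pathway downstream of ALDH7A1, fell from 16.66 ± 0.91 to 3.73 ± 0.09 in HepG2 and from 18.14 ± 0.47 to 4.78 ± 0.26 in LM3. SARDH, which oxidizes sarcosine, fell from 5.48 ± 0.74 to 1.73 ± 0.03 and BHMT2, a methyltransferase, from 5.36 ± 0.24 to 2.07 ± 0.20 in HepG2. Of the carnitine and polyamine list, 3 of 4 fell and 1 rose in HepG2 (median -0.47), and 2 fell and 1 rose in LM3 (median -0.21). The gene that rose was SMOX, the spermine oxidase, from 22.10 ± 1.46 to 91.12 ± 1.94 in HepG2 and from 7.57 ± 1.30 to 18.48 ± 0.80 in LM3, while AOC3, an amine oxidase, fell from 5.99 ± 0.27 to 1.66 ± 0.18 in HepG2.

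Of the fatty aldehyde and sphingolipid list, 5 of 7 fell and 2 rose in HepG2 (median -1.03), and 2 fell and 2 rose in LM3 (median -0.01). In the filtered LM3 fit its median was 0.454 over 3 genes, of which 1 fell and 2 rose. There the alcohol dehydrogenase and acetate list had -0.887 (3 of 3 fell) and the lysine and choline list -0.453 (3 of 4 fell, 1 rose). The retinoid list had -0.361 over 14 genes. Of all genes in that fit, 43.5% fell and 33.9% rose (median -0.06). Some genes passed that filter only through siNC, as given below. SGPP1, a phosphatase of sphingosine 1-phosphate, fell from 21.89 ± 0.51 to 9.18 ± 0.67 in HepG2. The fatty acid hydroxylases CYP4F11 and CYP4F3 fell from 3.22 ± 0.29 to 0.53 ± 0.14 and from 3.47 ± 0.10 to 0.96 ± 0.21 in HepG2. CYP4F11 in HepG2, and RARRES3 and STRA6 in LM3, passed the filter only through siNC, and each also fell in the fit with no filter. Some pathway genes given for a single line also fell in the other at an adjusted p under 0.05. Among them were ACSS2, GSTA4, CBR3, SHMT1 and HIBADH in HepG2, and STRA6, ACADSB and SGPP1 in LM3. Under quantile normalization CBR3 and ACADSB did not pass there.

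The pattern of each of the 2 enzymes ALDH1A1 and ALDH3A1 was compared with that of 8284 other genes by Pearson's r of log2(value + 1) over the 12 libraries, which fall into 4 groups. SERPINB5, ADD3, IQGAP2, COL3A1 and GPC6 were most like ALDH1A1, with r between 0.9996 and 0.9998, and all had means below 0.1 in both LM3 groups. SERPINB5, a serpin, had means of 37.14 and 13.28 in HepG2 siNC and siFASRL, and COL3A1, a fibrillar collagen, 31.43 and 10.31. ASB9, MADD, ATG2B, LGR4 and BRD3OS were most like ALDH3A1, with r between 0.9933 and 0.9955. ASB9, a substrate receptor of a ubiquitin ligase, had means of 5.64 and 1.33 in HepG2 and 19.14 and 4.11 in LM3. Among members, r with ALDH3A1 was 0.988 for ALDH1A3 and 0.929 for ALDH6A1, and near 0 for ALDH2 (-0.057) and ALDH1L1 (-0.092). With ALDH1A1, r was 0.902 for ALDH2 and 0.846 for ALDH1L1, and negative for ALDH6A1 (-0.64), ALDH1A3 (-0.476) and ALDH3A1 (-0.465). ALDH1A1 was near 0 in LM3, so for these genes the sign of r with it went with the line that held more of them. ALDH6A1, ALDH1A3 and ALDH3A1 fell with ALDH1A1 in HepG2 (log2 fold changes -0.635, -0.984 and -0.961). ALDH2 fell with ALDH3A1 in both lines. These r values therefore do not give the direction of the knockdown response.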

How the data were processed

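RNA-seq was available for 12 libraries, with condition and replicate taken from the labels. Upstream tools of the authors were SOAPnuke (1.5.2) for read cleaning, HISAT2 (2.0.4) for the genome, Bowtie2 (2.2.5) for coding transcripts and RSEM (1.2.12) for gene levels. The deposited values are normalized RSEM levels, and whether they are FPKM or TPM is not stated. The submitters' processing notes name hg19, whereas chromosome accessions in the tables belong to GRCh38, so positions are from RefSeq on GRCh38.p14. Low values did not fall on whole multiples (16.5% of 683 values within 0.1 of one, where a flat spread gives 20%), so reads were not recovered. One table held 6 further columns that repeat the LM3 values, and these were not used. Of 8842 genes, 8790 matched RefSeq by identifier.

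limma (3.58.1, R 4.3.3) was fitted on log2(value + 1) within each line, and on all 12 libraries for the interaction and the line difference, with two-sided tests and a filter of a value of 1 or more in 3 of the libraries fitted. The design had named a count test, with limma for values that are not counts. The fits were tested on simulated data. Members and gene lists were chosen with earlier results of these data known. Named genes are the members, the other ALDH genes, up to 3 genes per list, line and direction with the largest fold change past the stricter rule, and the 5 genes most like ALDH1A1 and ALDH3A1. BBOF1 was named for its position, and markers and correlations among members were picked after their values were seen. Alternatives were the added constant, the filter, the scaling, the replicate block, a joint fit and leaving out each replicate. Python (3.11.15) with pandas (2.3.3) handled the tables, and matplotlib (3.10.9) the figures.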

Additional observations from a re-analysis of the deposited data

Results flagged for a closer look

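In the interaction test of limma, given here as the LM3 effect minus the HepG2 effect, 46.7% of all 8285 genes tested passed. Of 15 ALDH genes tested, those that passed were ALDH1A1, ALDH1B1, ALDH1L1, ALDH3A1, ALDH7A1 and ALDH18A1. No count of them is set against that share. The values of ALDH1A1 (1.85) and ALDH1L1 (1.22) only restate the HepG2 decrease, since both were listed at or near 0 in LM3. They do not show a difference in effect. For ALDH1B1 the interaction was 0.62 and for ALDH7A1 0.29, where the HepG2 decrease was the larger. For ALDH3A1 it was -0.45, which did not pass the test with 0.1 as the added constant, and the remaining shares were 27.5% and 26.2%. For ALDH18A1 it was 0.20 (limma adjusted p = 0.030), and it no longer passed with the replicate block or without any 1 of 6 single libraries. Other ALDH genes passed only under alternatives, ALDH3A2 and ALDH6A1 with both scalings, ALDH3B1 and ALDH5A1 with quantile normalization, ALDH4A1 with 0.1 added, and ALDH1A3, ALDH4A1 and ALDH6A1 without some single libraries. Only siNC brought ALDH4A1 past the LM3 filter, and its sign turned under quantile normalization (0.214), so no direction is read from it.

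Among pathway genes tested in both lines, the decrease was larger in HepG2 for ACADSB (0.56) and SGPP1 (0.28). RARRES3 (0.79) and STRA6 (0.46) also passed, but only siNC brought them past the LM3 filter, and with 0.1 as the added constant neither passed and RARRES3 took the opposite sign (-0.185), so no direction is read from them. It was larger in LM3 for ACSS2 (-0.82), GSTA4 (-0.55), RARRES2 (-0.51) and SHMT1 (-0.38). After quantile normalization GSTA4, RARRES2 and SHMT1 no longer passed. SHMT1 also no longer passed under median-of-ratios scaling, and SHMT1, SGPP1 and RARRES2 no longer did without some single libraries. CBR3, CRABP2 and DHTKD1 passed only under some alternatives. The increase of SMOX was smaller in LM3 (-0.80). Among markers the difference was -1.10 for COL1A1, -0.44 for KRT18 and -0.33 for KRT7.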

How the results depend on the processing

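Of 225 member fold changes under the alternatives, 223 kept their direction and their side of the adjusted p threshold. The exceptions were ALDH1B1 (0.042) and ALDH7A1 (0.051) in LM3 under median-of-ratios scaling, neither past the test. The 225 include ALDH1L1 and ALDH3A1 in HepG2, whose direction in filtered fits was set by passing the filter only through siNC. For these genes the count does not show stability. With 0.1 as the added constant, genes past the stricter rule numbered 1373 in HepG2 and 900 in LM3, against 847 and 570, and the cause was not tested.

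Interactions that changed sign were those of ALDH2 under median-of-ratios scaling (0.028) and quantile normalization (0.184), ALDH4A1 (0.214) and RARRES2 (0.153) under quantile normalization, and ALDH5A1 (-0.009), RARRES3 (-0.185) and CRABP2 (-0.352) with 0.1 added. Leaving out single replicates gave -0.101 to 0.042 for ALDH2, -0.01 to 0.074 for ALDH5A1 and -0.122 to 0.252 for CRABP2, and -0.096 to 0.003 for the line difference of ALDH7A1. The causes were not tested.

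Deviations of same-numbered libraries from their group means correlated at 0.3002, 0.3465 and -0.1824 in HepG2 and at -0.0823, 0.0893 and -0.1492 in LM3, so pairs were not shown, though replicates 1 and 2 of HepG2 deviated partly alike. With the replicate block, 847 genes in HepG2 and 570 in LM3 passed the stricter rule, 7356 and 5691 the adjusted p alone, and 3735 the interaction test. The block was not used for the line difference. The unknown depth limits the low values of ALDH1L1, ALDH3A1 and ALDH8A1.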
